A study of Homo sapiens with 12 samples.

Results

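The comparison set side population (SP) cells against main population (MP) cells of DEL, Karpas299 and SUPM2, 3 established human lines grown from ALCL (anaplastic large cell lymphoma), a cancer of T cells that carry CD30. It used 6 of the series' 12 arrays, chosen by their labels: 1 SP and 1 MP array from each of the 3 lines, paired by line. The remaining 6 arrays, 3 SP and 3 MP, came from SUDHL-1, which was left out of the comparison. Its arrays shared in choosing 1 probe set per gene, and the line was otherwise used only to ask whether its difference was another. All are known for a fusion of NPM1 with the kinase gene ALK, and all were grown to logarithmic phase in RPMI medium with calf serum and antibiotics, stained with Hoechst dye and sorted by flow cytometry. The labels name no drug treatment and no normal T cells for comparison. The values are log2 signals per gene, so a difference of 1 is 2-fold, and each difference is given as SP minus MP. By its title the study sought the stem cells of this lymphoma, and the comparison asks which genes separated SP from MP cells in the lines other than SUDHL-1.

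The dye enters living cells and binds DNA. Cells with active ATP-binding cassette (ABC) pumps, above all ABCG2 and ABCB1, pump it out and appear as a dim tail beside the main population, and in bone marrow that tail holds blood stem cells. Because the dye is a DNA stain, its brightness also follows DNA content, which grows through S phase. The histones that package new DNA are made in S phase, and the kinases, motors and kinetochore proteins that divide the chromosomes are made in G2 and mitosis.

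Of 18417 genes, 0 passed an adjusted p of 0.05 in limma's paired test, and the smallest adjusted p was 0.430, for the small nucleolar RNA gene SNORD41. At an unadjusted p under 0.05, limma's test held 887 genes, 4.82% of those tested, with 460 higher and 427 lower in SP. The differences below are therefore given as values, and none is a call. With 3 pairs, 2 residual degrees of freedom remain, and an exact sign-flip test of a single gene cannot go below 0.25. The labels do not say that arrays came from separate cultures. The p-values thus reflect the scatter of these 6 samples alone, part of which may be technical. For each gene limma draws the variance toward a value estimated from all genes, so its p-values can lie far below 0.25. Each ± below is the SE from that moderated variance. It is not the scatter of a gene's own line differences alone. In sorted bulk RNA, fewer cells of a kind and less RNA per cell cannot be told apart.

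The 6 arrays had medians over all probe sets of 5.24 to 5.35. The 6 SUDHL-1 arrays stood apart, at 4.83 to 5.0, and the sources used here do not say if RMA was run on all 12 at once. SP and MP arrays of the same line correlated at 0.982 in DEL, 0.979 in Karpas299 and 0.963 in SUPM2 over all genes, and arrays of different lines at 0.923 to 0.952. The ALCL markers TNFRSF8 (which encodes CD30), IL2RA, PRF1, GZMB, TIA1 and BATF3 lay above the upper quartile of genes on all 6 arrays. CD4 lay under the median on 2 arrays and CD2 on 4, and of the receptor chains CD3E and CD3G lay under it on all 6. The B-cell gene MS4A1, the myeloid genes LYZ and MPO, the NK-cell genes NCAM1 and KLRF1 and the epithelial gene EPCAM lay under the lowest quartile on all 6. Other markers did not: 2 of 10 B-cell, 5 of 16 myeloid and 6 of 12 NK-cell genes lay under that quartile on all 6 arrays. Of erythroid and platelet genes 2 of 10 lay under that quartile on all 6, and of stromal and epithelial genes 4 of 20. CD79A, PAX5 and NCR1 lay under it on 0 arrays, and the myeloid receptor gene CSF1R was above the upper quartile on all 6. ALK, POU5F1 and NANOG were not analysed here.

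Of all gene lists described, the linker and core histones had the highest median differences. Core histone genes, whose products form the nucleosome, had a higher mean in SP for 41 of 47 measured members, where 56.2% of all genes did, and their median difference was 0.60 against 0.03 over all genes. All 5 linker histone H1 genes, whose products bind the DNA between nucleosomes, were higher on the mean, with a median of 1.17, or 0.70 without DEL. At an unadjusted p under 0.05, 18 core histone genes and 4 linker genes were higher and 0 of either were lower, where 2.5% of all genes were higher. Because these genes are nearly identical in sequence, probe sets may share signal, and the value of any single histone gene is uncertain.

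The sequences before the start sites of 4 of these genes show the letters that the groups share. They are the 250 bases upstream of the start, from RefSeq (GRCh38.p14), written 5′ to 3′ on the gene's strand. Capitals mark AAACACA (known as the H1 box), ATTTGCAT (the octamer), CCAAT and TATAAA, each searched on both strands, so that a match on the other strand appears as its reverse complement.
H1-3, chr6:26234988-26235237, minus strand: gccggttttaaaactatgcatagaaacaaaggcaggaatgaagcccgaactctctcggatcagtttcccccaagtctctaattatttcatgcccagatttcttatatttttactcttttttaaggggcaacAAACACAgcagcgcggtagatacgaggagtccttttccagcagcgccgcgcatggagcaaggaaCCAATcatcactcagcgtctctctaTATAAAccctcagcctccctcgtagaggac
H1-5, chr6:27867589-27867838, minus strand: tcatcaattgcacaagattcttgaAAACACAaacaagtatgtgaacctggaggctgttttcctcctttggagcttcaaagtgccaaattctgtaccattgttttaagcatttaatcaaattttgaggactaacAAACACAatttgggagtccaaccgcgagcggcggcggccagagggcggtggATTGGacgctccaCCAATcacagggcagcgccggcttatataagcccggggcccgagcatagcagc
H2BC10, chr6:26272681-26272930, plus strand: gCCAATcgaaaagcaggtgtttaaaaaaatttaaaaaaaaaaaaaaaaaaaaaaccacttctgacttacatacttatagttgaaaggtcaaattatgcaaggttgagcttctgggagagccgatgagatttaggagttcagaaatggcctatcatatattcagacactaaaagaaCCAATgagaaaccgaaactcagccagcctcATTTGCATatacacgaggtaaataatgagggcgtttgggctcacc
H2BC7, chr6:26199266-26199515, plus strand: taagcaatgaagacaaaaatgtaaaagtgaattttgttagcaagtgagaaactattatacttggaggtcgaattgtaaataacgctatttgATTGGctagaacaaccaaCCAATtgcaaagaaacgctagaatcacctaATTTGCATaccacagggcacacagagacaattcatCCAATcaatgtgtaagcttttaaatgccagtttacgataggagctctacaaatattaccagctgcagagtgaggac
AAACACA was found upstream of 5 of 5 linker histone genes and of 4.95% of 27305 promoters of the same length. ATTTGCAT was found upstream of 13 of 15 H2B genes and 9 of 11 H2A genes that had a promoter in the table, of 0 of 6 H3 and 0 of 10 H4 genes, and of 1.66% of all promoters. The motif search was added after the expression values had been seen, and a match is a description of the letters only.

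The linker gene H1-3 was at 7.54 in DEL, 9.57 in Karpas299 and 7.88 in SUPM2 on the SP arrays and at 5.80, 7.76 and 6.52 on the MP arrays. The SP value was the higher in each line, although the SP value of DEL was below the MP value of Karpas299, so the groups overlapped. Its mean difference was 1.64 ± 0.17 (SE, n = 3 lines; limma's unadjusted p = 0.000124, adjusted p = 0.974). H1-5 had SP values of 9.05, 9.55 and 8.50 and MP values of 7.27, 8.52 and 5.49 in the same order. Its difference of 1.94 ± 0.38 (SE, n = 3) was above that of H1-3 but varied more, from 1.03 in Karpas299 to 3.01 in SUPM2. The SD of its 3 line differences was 1.00, against 0.24 for H1-3. H1-4 was higher by 1.17 ± 0.32 and its SP values, 11.61 to 12.21, all lay above its MP values, 9.71 to 11.54. H1-2 was higher by 0.41 ± 0.15, whereas H1-1 differed by only 0.10 ± 0.25 and was lower in SUPM2.

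Among core histones, the H2B gene H2BC10 was at 9.42, 10.78 and 9.80 in SP and at 7.28, 9.27 and 8.78 in MP cells of DEL, Karpas299 and SUPM2. Every SP array lay above every MP array, with a mean difference of 1.56 ± 0.25 (SE, n = 3; limma's unadjusted p = 0.00112). The H4 gene H4C2 did the same, at 10.50, 11.65 and 10.91 in SP against 9.23, 10.33 and 10.02 in MP, a difference of 1.16 ± 0.16. Another H4 gene, H4C9, was higher by 1.31 ± 0.25, and its difference was largest in SUPM2, at 1.97. H2BC7, H3C8 and H3C12 were higher by 1.22 ± 0.22, 0.97 ± 0.18 and 0.96 ± 0.20. Of the 47 core genes, 26 were higher in all 3 lines and 0 were lower in all 3, where 14.6% and 10.2% of all genes were. For 5 of them every SP value lay above every MP value, which held for 3.74% of all genes.

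**Figure D1:**
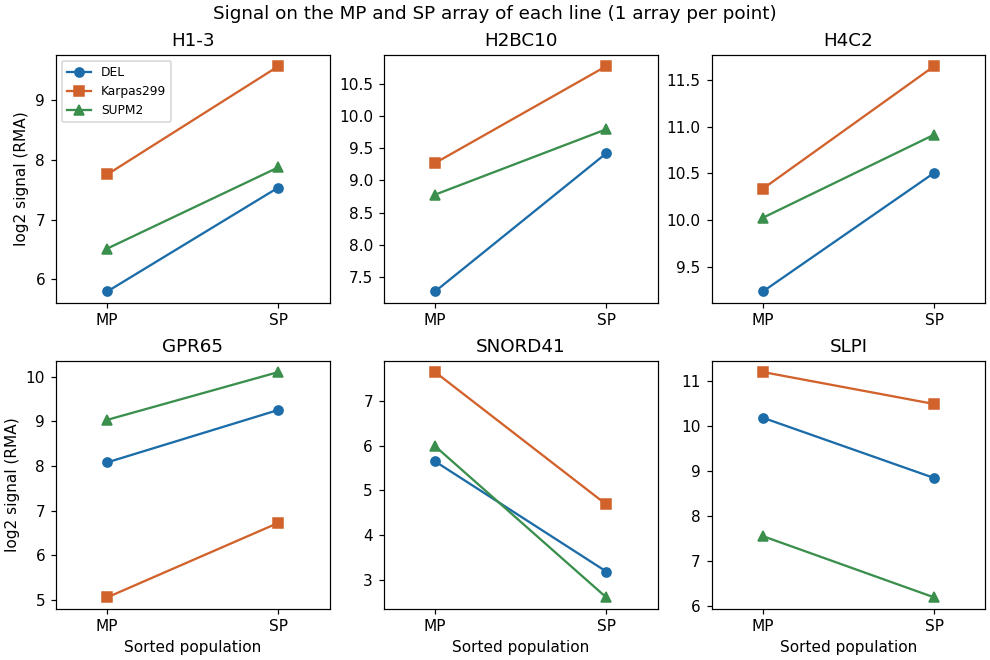
Log2 signal (vertical axes, scaled per gene) on the MP and the SP array of each line, 1 array per point, with a line joining the arrays of 1 cell line. For H1-3, H2BC10, H4C2 and GPR65 all 3 lines go up from MP to SP, and for SNORD41 and SLPI all 3 go down.

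The plot of paired levels shows that the lines kept their own level of a gene, and that the distance between lines was often larger than that between SP and MP. GPR65 is an example: its MP level was 5.06 in Karpas299 and 9.03 in SUPM2.

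By line, the median over core histones was 0.77 in DEL and 0.70 in Karpas299. It was lowest in SUPM2, at 0.33, with 31 of 47 members higher there against 41 in DEL and 43 in Karpas299. Over all genes, 52.7%, 49.2% and 57.8% were higher in SP in these lines. In SUDHL-1 the core histone median was 1.11 and the linker median 1.59. By limma's interaction test no histone gene passed the adjusted threshold for a difference between the 3 lines and SUDHL-1, and at an unadjusted p under 0.05 3 core histone genes had a smaller difference in the 3 lines, where 1.62% of all genes did.

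Genes of mitosis were higher in SP on the mean, and here SUPM2 led. Mitotic kinases, cyclins and the complexes that destroy them had a higher mean for 25 of 28 members (median 0.48), spindle and cytokinesis genes for 28 of 30 (0.50), kinetochore and centromere genes for 18 of 26 (0.30) and chromosome condensation genes for 11 of 13 (0.22). At an unadjusted p under 0.05, 6, 11, 3 and 1 of them were higher and 0 lower, where 2.5% of all genes were higher. A single gene of 13 is no result about the condensation list. Line by line the medians were unequal. That of the mitotic kinases was -0.11 in DEL, 0.22 in Karpas299 and 0.97 in SUPM2, and that of the spindle genes 0.10, 0.40 and 1.00. That of the kinetochore genes was -0.11, -0.14 and 0.95.

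Without SUPM2, the mitotic kinase median was 0.06 with 16 of 28 higher, and the kinetochore median was -0.15 with 11 of 26 higher. The spindle median without SUPM2 was 0.24, with 23 of 30 higher, the condensation median 0.07, with 9 of 13, and the core histone median 0.75, with 43 of 47. Thus the direction of the kinetochore list rested on 1 line, and that of the histone and spindle lists did not. The mitotic kinase and condensation medians fell from 0.48 and 0.22 to near 0, so their size rested on SUPM2 as well.

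**Figure D2:**
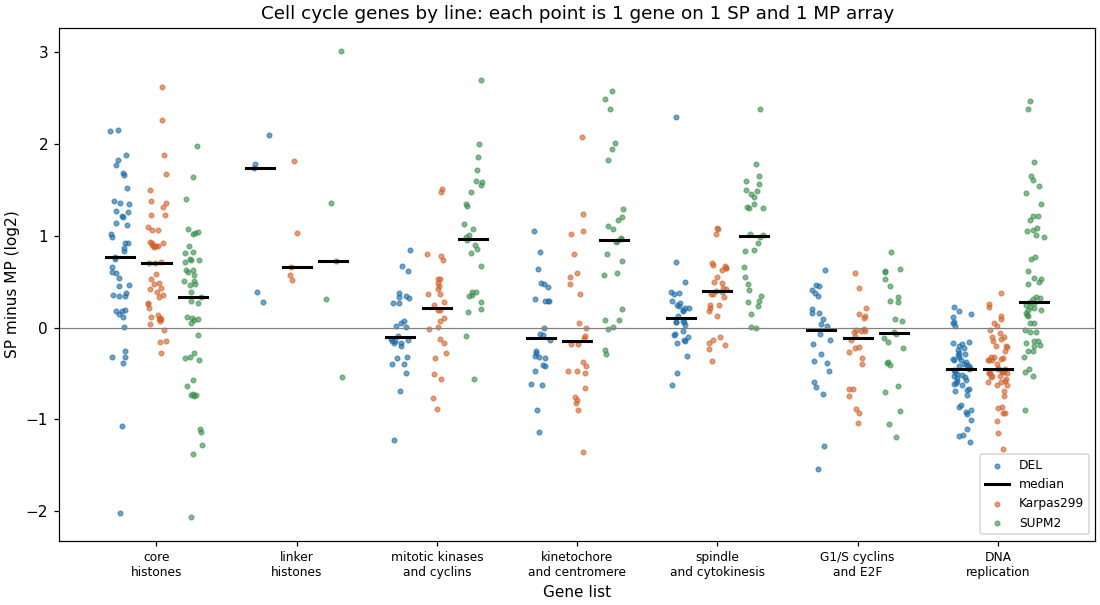
SP minus MP (log2, vertical axis) for each gene of 7 cell cycle lists, 1 point per gene, with the median of each list and line as a black bar. DEL and Karpas299 had core histone medians of 0.77 and 0.70, SUPM2 had mitotic medians near 1, and DNA replication genes lay below 0 in DEL and Karpas299 and above 0 in SUPM2.

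The plot of cell cycle genes by line shows the histones apart from the other lists in DEL and Karpas299, and in SUPM2 mitotic medians above that of the core histones. PLK1, the polo-like kinase that drives entry into mitosis, was at 8.91, 10.82 and 9.30 in SP and at 8.24, 9.34 and 8.49 in MP cells of DEL, Karpas299 and SUPM2. It was higher in each line, by 0.99 ± 0.21 on the mean (SE, n = 3; limma's unadjusted p = 0.00425). CDK1, the kinase that PLK1 helps to switch on, was higher by 0.94 ± 0.25, with its smallest difference, 0.42, in Karpas299. AURKA, a kinase of the spindle poles, and CCNB2, a cyclin partner of CDK1, were higher by 0.78 ± 0.26 and 0.73 ± 0.24, both most in SUPM2.

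CDCA8, which encodes borealin of the chromosomal passenger complex, had SP values of 8.63, 9.26 and 8.55 and MP values of 7.58, 8.78 and 6.60. Its difference of 1.16 ± 0.30 ran from 0.47 in Karpas299 to 1.95 in SUPM2. CDCA3, which acts in the ubiquitin pathway that allows entry into mitosis, was the gene of the spindle list with the smallest p and differed most in DEL, by 2.30. The spindle motors KIF11 and KIF23 were higher by 0.50 ± 0.15 and 0.80 ± 0.26, and TPX2, which activates AURKA on the spindle, by 0.77 ± 0.26. TOP2A, the topoisomerase that untangles sister chromatids, was at 9.65, 10.57 and 9.27 in SP against 9.24, 10.03 and 7.80 in MP, a difference of 0.81 ± 0.25. MKI67, the common proliferation marker, differed by -0.07 ± 0.17 and was lower in DEL and SUPM2.

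Upstream of several of these genes stands TTTGAA, the letters of the cell cycle genes homology region (CHR), together with CCAAT. The 250 bases before the start of 5 genes named above are shown because their letters recur, with TTTGAA and CCAAT in capitals on either strand, from RefSeq (GRCh38.p14).
PLK1, chr16:23678639-23678888, plus strand: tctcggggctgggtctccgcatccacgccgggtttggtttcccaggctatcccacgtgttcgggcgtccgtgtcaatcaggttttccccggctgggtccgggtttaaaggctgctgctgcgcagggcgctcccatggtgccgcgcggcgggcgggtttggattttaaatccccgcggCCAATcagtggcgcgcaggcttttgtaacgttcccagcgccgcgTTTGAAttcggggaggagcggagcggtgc
CCNB2, chr15:59104896-59105145, plus strand: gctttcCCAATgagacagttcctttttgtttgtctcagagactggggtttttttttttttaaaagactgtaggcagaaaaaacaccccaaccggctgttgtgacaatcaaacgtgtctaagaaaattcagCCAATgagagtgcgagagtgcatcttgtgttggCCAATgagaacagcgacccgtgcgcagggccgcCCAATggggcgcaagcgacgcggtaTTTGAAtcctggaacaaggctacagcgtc
KIF23, chr15:69414099-69414348, plus strand: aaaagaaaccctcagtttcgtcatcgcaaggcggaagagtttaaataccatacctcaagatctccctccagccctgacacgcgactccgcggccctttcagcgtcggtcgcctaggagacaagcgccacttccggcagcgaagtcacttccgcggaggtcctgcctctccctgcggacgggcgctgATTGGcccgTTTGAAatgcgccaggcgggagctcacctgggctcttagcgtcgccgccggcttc
CDCA8, chr1:37692266-37692515, plus strand: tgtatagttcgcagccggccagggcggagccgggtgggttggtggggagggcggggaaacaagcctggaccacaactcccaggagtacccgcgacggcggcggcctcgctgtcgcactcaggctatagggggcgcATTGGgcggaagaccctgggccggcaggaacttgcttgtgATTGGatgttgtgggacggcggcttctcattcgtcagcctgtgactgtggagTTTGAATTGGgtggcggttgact
TOP2A, chr17:40417897-40418146, minus strand: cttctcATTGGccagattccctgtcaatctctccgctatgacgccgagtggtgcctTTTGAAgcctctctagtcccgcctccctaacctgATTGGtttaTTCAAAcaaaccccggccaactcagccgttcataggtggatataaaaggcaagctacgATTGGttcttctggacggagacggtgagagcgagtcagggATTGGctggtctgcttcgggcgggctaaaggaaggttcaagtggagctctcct
In PLK1 and CCNB2 alike, TTTGAA stands 29 to 24 bases before the start. TTTGAA was found upstream of 47.8% of 23 mitotic kinase and cyclin genes, 48.1% of 27 spindle genes and 54.5% of 11 condensation genes, and of 13.6% of all 27305 promoters. It was found upstream of 22.7% of 22 kinetochore genes and 4.26% of 47 DNA replication genes. CCAAT stood upstream of 69.6% of the mitotic kinase genes and 33.0% of all promoters. It was not particular to them: it stood upstream of 59.1% of kinetochore, 53.2% of DNA replication and 83.3% of core histone genes.

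The genes that start and copy DNA were lower in SP cells of DEL and Karpas299. DNA replication genes, which load and run the replication fork, had a lower mean in SP for 35 of 53 members, where 43.8% of all genes did, with a median of -0.16. In DEL and Karpas299 46 of 53 were lower in each, with medians of -0.45 and -0.45, where 47.2% and 50.8% of all genes were lower. In SUPM2 15 were lower and 38 higher, with a median of 0.28, where 42.1% of all genes were lower. At an unadjusted p under 0.05, 5 members were lower and 0 higher, where 2.32% of all genes were lower, and the median rested on which line was left out. It was -0.41 without SUPM2 (3 of 53 higher), 0.01 without DEL (28 higher) and -0.01 without Karpas299 (25 higher). The list's mean signal was 6.75 in SP and 6.25 in MP cells of SUPM2, under its 8.05 to 8.91 on the other 4 arrays, and whether this level moved with the difference was not tested.

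POLA2, a subunit of the polymerase that makes primers, was at 7.56, 8.27 and 4.87 in SP and 8.30, 8.75 and 5.77 in MP cells, lower in each line, with a mean difference of -0.70 ± 0.16 (SE, n = 3; limma's unadjusted p = 0.00608). ORC1, which marks origins, and MCM7, a subunit of the replicative helicase, differed by -0.66 ± 0.16 and -0.48 ± 0.14. ASF1B, a chaperone of new histones, differed by -0.77 ± 0.27, with -1.32 in Karpas299 and -0.05 in SUPM2. These genes were lower in SUPM2 too, although most of their list was higher there.

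Genes of the G1 to S transition had a median of -0.11, with 14 of 24 lower, where 43.8% of all genes were. The list's direction did not hold: without Karpas299 the median was 0.01, with 13 of 24 higher, and without DEL or SUPM2 it was -0.05. At an unadjusted p under 0.05, 5 were lower and 0 higher, where 2.32% of all genes were lower. SKP2, which marks the inhibitor p27 for destruction, was at 8.20, 8.07 and 7.0 in SP against 8.79, 8.82 and 8.05 in MP, a difference of -0.79 ± 0.16 (SE, n = 3; limma's unadjusted p = 0.00400). The S-phase cyclins CCNE1 and CCNE2 differed by -0.69 ± 0.16 and -0.56 ± 0.15, and their partner CDK2 by -0.53 ± 0.18. CDC25A, the phosphatase that activates CDK2, differed by -1.54, -1.05 and -0.05 in DEL, Karpas299 and SUPM2. DNA repair genes had a lower mean for 25 of 34 members (median -0.11), where 43.8% of all genes did. In DEL 25 were lower, in Karpas299 18 and in SUPM2 18, and without DEL 16 of 34 were higher. Their smallest p values belonged to RAD54L, a motor of homologous recombination, at -0.94 ± 0.17, and to FANCG of the Fanconi core complex, at -0.67 ± 0.15. RAD54L and FANCG were among the 7 of 34 members lower in all 3 lines, where 10.2% of all genes were. In SUDHL-1 RAD54L differed by 0.32 (limma's interaction, unadjusted p = 0.00126, adjusted p = 0.967).

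The pumps that define an SP cell were not higher in SP throughout. ABCG2 was at 5.87, 6.48 and 4.49 in SP and at 4.65, 6.86 and 4.19 in MP cells of DEL, Karpas299 and SUPM2. It was higher in DEL by 1.21 and in SUPM2 by 0.30 and differed by -0.37 in Karpas299, and its mean difference of 0.38 ± 0.32 was near its error. ABCB1 was higher in each line by small amounts, 0.27, 0.07 and 0.23, at signals of 3.06 to 4.01, all below the lowest quartile of genes (4.43). ABCC1, a related pump, differed by -0.13, 0.83 and -0.59. Of 24 further ABC transporters 9 were higher on the mean and 0 had an unadjusted p under 0.05 in limma's test, the smallest being 0.130 for ABCC3.

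Stem cell genes gave values in both directions. Pluripotency factors had a higher mean for 8 of 13 members, with a median of 0.07. SOX2 was at 4.78, 6.45 and 7.43 in SP and 5.84, 7.01 and 8.03 in MP cells, lower in all 3 lines, with a difference of -0.74 ± 0.17 (limma's unadjusted p = 0.00687). ZFP42, a marker of embryonic stem cells, was higher in all 3 lines, by 0.83 ± 0.27. However, its signals in DEL and Karpas299 (2.90 to 4.02) all fell short of the lowest quartile of genes, 4.43. Only SUPM2 exceeded that level, with an SP signal of 8.03 and an MP signal of 6.50. The SUDHL-1 difference for ZFP42 had the opposite sign, -0.21 ± 0.17 (SE). Of 21 genes known from blood stem and progenitor cells 15 were higher (median 0.10), and 0 had an unadjusted p under 0.05 in limma's test. MEIS1, a partner of HOX proteins, was the first of these, differing by 1.31, 0.34 and 0.13 in DEL, Karpas299 and SUPM2. The surface markers CD34 and PROM1 differed by 0.13 ± 0.14 and 0.10 ± 0.15. Both had low signals: PROM1 was at 3.07 to 3.39, below the lowest quartile of genes (4.43), and CD34 at 4.32 to 4.53, near it. Within the MYC network 10 of 12 were higher with a median of 0.12, and MYC itself differed by -0.17, 1.06 and 0.15.

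**Figure D3:**
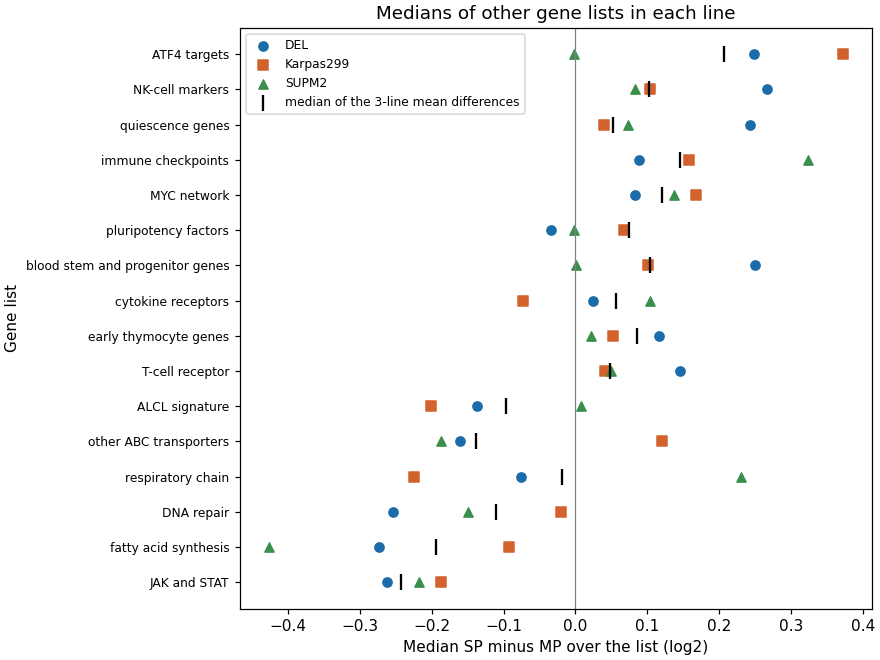
Median SP minus MP (log2, horizontal axis) of 16 gene lists in each line, with a black bar for the median of the 3-line mean differences. The JAK and STAT and fatty acid synthesis lists lay left of 0 in all 3 lines, and the ATF4 targets lay right of 0 in DEL and Karpas299 and at 0 in SUPM2.

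In the plot of list medians, 6 of the 16 lists had medians on both sides of 0. ATF4 targets, which supply amino acids under stress, were higher for 21 of 28 (median 0.21; 5 higher and 0 lower at an unadjusted p under 0.05, where 2.5% of all genes were higher). Their median was 0.11 without DEL and 0.31 without SUPM2. CTH, of cysteine synthesis, was at 8.28, 5.81 and 8.96 in SP against 7.42, 4.65 and 8.64 in MP, a difference of 0.78 ± 0.21. PSAT1, of serine synthesis, was higher by 0.69 ± 0.17, and SESN2, a sensor of leucine, by 0.62 ± 0.18. SLC7A11, the cystine importer, was higher in DEL by 1.32 and in Karpas299 by 1.84 but not in SUPM2, at -0.33.

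Fatty acid synthesis genes were lower for 10 of 12 (median -0.19). ELOVL6, which lengthens fatty acids, was at 6.67, 3.50 and 5.61 in SP against 7.33, 4.33 and 6.42 in MP, a difference of -0.77 ± 0.15 (SE, n = 3; limma's unadjusted p = 0.00264). FADS1, a desaturase, differed by -0.46 ± 0.15. JAK and STAT genes, which carry cytokine signals, were lower for 6 of 9 (median -0.24). TYK2 differed by -0.70 ± 0.23 and most in Karpas299, at -1.29, while STAT3, a main relay of ALK signals, differed by -0.14 ± 0.15. Genes of the ALCL signature had a median of -0.10, with TNFRSF8 at -0.20, -1.46 and 0.10.

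Some lymphocyte genes were higher in all 3 lines. This held for 5 of 24 T-cell receptor, 4 of 19 early thymocyte and 5 of 29 cytokine receptor genes, where 14.6% of all genes were. Lower in all 3 lines were 0, 2 and 3 of them, where 10.2% of all genes were. These shares are near those of all genes, so the counts are no result about the lists. T-cell receptor genes had a median of 0.05 with 14 of 24 higher, and early thymocyte genes 0.09 with 12 of 19, where 56.2% of all genes were higher. Without DEL both medians turned, to -0.01 and -0.03. GATA3, a factor of T-cell development, was at 6.93, 6.54 and 6.64 in SP and 6.33, 5.32 and 6.09 in MP, so all SP arrays lay above all MP arrays (0.79 ± 0.19; limma's unadjusted p = 0.00846). The cytokine gene IL10 showed the same, at 6.75, 7.11 and 6.82 against 6.02, 6.41 and 5.41 (0.95 ± 0.20). Such a separation held for 1 gene in the list of each, and for 3.74% of all genes. IL21R, a cytokine receptor, was higher by 0.70 ± 0.20. The checkpoint list was higher for 13 of 17 (median 0.15, or 0.08 with 10 of 17 without SUPM2), where 56.2% of all genes were. Only 8 of its 17 genes stayed when the lowest 25% of mean signal was left out, and its SUDHL-1 median was -0.02. CD86 of that list, a ligand of CTLA4 and CD28, was higher by 0.53 ± 0.16. TXNIP, which restrains glucose uptake and is high in resting cells, was at 10.60, 8.99 and 9.04 in SP against 9.80, 7.59 and 8.20 in MP (1.01 ± 0.19). The quiescence list that holds it had a median of 0.05, with 13 of 20 higher, and -0.01 without DEL. TOB2, an antiproliferative gene and the next of that list by p, was lower in all 3 lines (-0.48 ± 0.19), as was ID3 of the thymocyte list (-0.47 ± 0.21).

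NK-cell markers were higher for 10 of 12 (median 0.10, or 0.06 without DEL), among them FCER1G, an adaptor of Fc receptors, at 0.79 ± 0.15, and KLRD1 at 0.68 ± 0.19, which lay under the lowest quartile on all 6 arrays. Of the 12, 6 lay under the lowest quartile on all 6 arrays, and the list's mean signal was 3.89 to 5.08 in SP and 3.77 to 4.76 in MP. Their part in the lymphocyte genes' values was not tested.

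**Figure D4:**
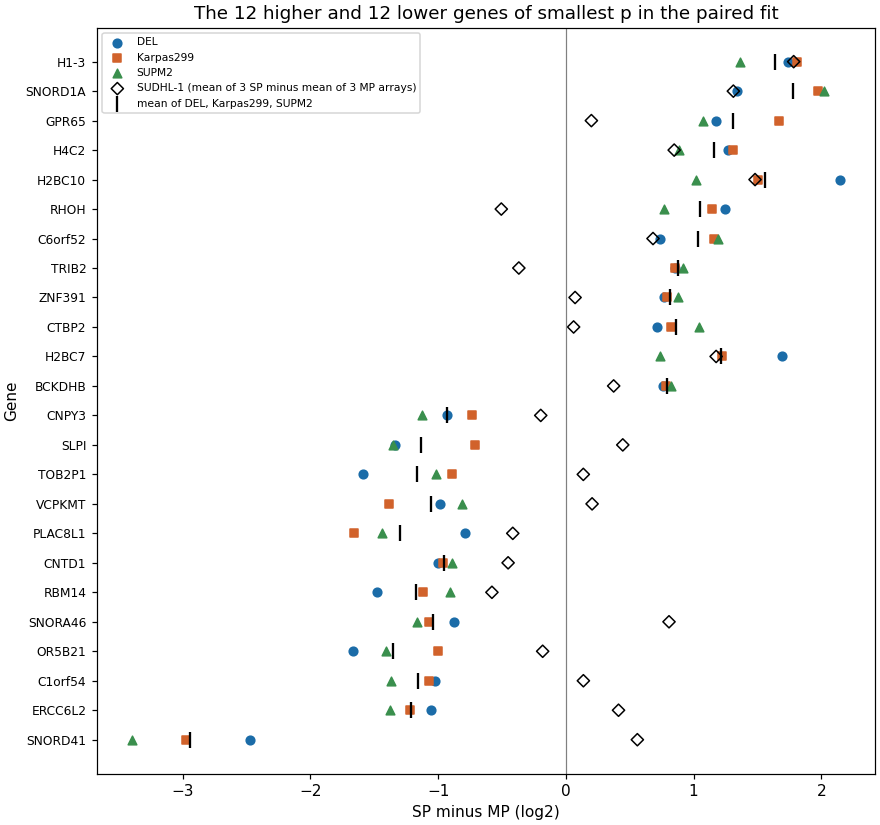
SP minus MP (log2, horizontal axis) in each line for the 12 higher and the 12 lower genes of smallest p in limma's paired fit, with the mean of the 3 lines as a bar and SUDHL-1 (mean of 3 SP minus mean of 3 MP arrays) as an open diamond. SNORD41 lay lowest, at -2.95 on the mean, with SUDHL-1 at 0.56.

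The plot of the 24 genes of smallest p sets them beside SUDHL-1, which took no part in ranking them. Its arrays did share in choosing the probe set of each gene. The 24 genes were ranked among those with the same sign in all 3 lines and a mean signal above the lowest quartile. Of the 12 higher genes 10 were higher in SUDHL-1 as well, and of the 12 lower genes 5 were lower there, beside 55.2% and 55.3% of all genes with the same sign in the 3 lines. Of the 12 higher genes 7 lie on chromosome 6, which holds 5.3% of the genes tested and the large histone cluster, and 4 are histones.

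GPR65, a receptor that senses acid, was at 9.26, 6.73 and 10.10 in SP against 8.08, 5.06 and 9.03 in MP, higher by 1.31 ± 0.18 (SE, n = 3; limma's unadjusted p = 0.000608). RHOH, which acts in T-cell receptor signalling, was at 7.30, 6.83 and 7.63 against 6.05, 5.68 and 6.86, higher by 1.05 ± 0.17. TRIB2, a pseudokinase, and BCKDHB, of branched-chain amino acid breakdown, differed by almost the same amount in each line, 0.88 and 0.79 with SDs over lines of 0.04 and 0.03. CTBP2, a corepressor, was higher by 0.86 ± 0.15, and by 0.51 where its probe sets were averaged.

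Among the lower genes, SLPI, a secreted inhibitor of leukocyte proteases, was at 8.85, 10.49 and 6.20 in SP against 10.18, 11.19 and 7.56 in MP, a difference of -1.13 ± 0.19 (limma's unadjusted p = 0.00160). ERCC6L2, a helicase of DNA repair, had SP values of 7.16, 7.63 and 6.49, all below its MP values of 8.22, 8.85 and 7.87 (-1.22 ± 0.15). RBM14, an RNA-binding coactivator, differed by -1.17 ± 0.17. Averaging the probe sets of a gene made these 2 differences smaller, -0.51 for ERCC6L2 and -0.70 for RBM14. CNPY3, a chaperone of Toll-like receptors, and VCPKMT, a lysine methyltransferase, differed by -0.93 ± 0.16 and -1.06 ± 0.18, and the groups did not overlap for either. Of all genes, 1.87% had every SP value below every MP value.

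A difference of at least 2-fold in all 3 lines was met by 6 genes upward (0.0326% of genes) and 5 downward (0.0271%). The 6 were H1-3, H1-5, H2BC10, GPR65, SNORD1A and SCARNA22. The 5 were SNORD41, SNORD34, ERCC6L2, C1orf54 and OR5B21. Thus 4 of the 11 were small nucleolar or Cajal body RNA genes, which make up 1.04% of all genes, a count made after the values were seen.

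The difference between the 3 lines and SUDHL-1 was itself tested. By limma's interaction of population with SUDHL-1, 0 of 18417 genes passed an adjusted p of 0.05 (smallest 0.738), and 661 (3.59%) had an unadjusted p under 0.05, 1.97% with a higher and 1.62% with a lower difference in the 3 lines. RHOH had one of the smallest: higher by 1.05 in the 3 lines and at -0.51 in SUDHL-1 (unadjusted p = 0.000142). SLPI was the reverse, at -1.13 in the 3 lines and 0.45 in SUDHL-1 (unadjusted p = 9.8e-05). FCER1G went as RHOH did, at 0.79 against -0.39, and TINF2, which protects telomeres within shelterin, as SLPI did, at -0.67 against 0.54. H1-3 and H2BC10 differed from SUDHL-1 by -0.15 ± 0.78 and 0.07 ± 0.56 (SE), errors that leave room for a large difference.

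Over all genes the differences of the 3 lines were almost uncorrelated. The SD of SP minus MP over genes was 0.40 in DEL, 0.43 in Karpas299 and 0.54 in SUPM2, and over genes, which are not independent replicates, DEL and Karpas299 correlated at 0.03, DEL and SUPM2 at 0.08 and Karpas299 and SUPM2 at -0.06. Genes 2-fold higher numbered 197 in DEL (1.07%), 369 in Karpas299 (2.0%) and 608 in SUPM2 (3.3%), and genes 2-fold lower 253 (1.37%), 220 (1.19%) and 605 (3.29%). With 1 SP and 1 MP array a line, these counts have no replicate check.

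Many of the largest single-line values came from 1 array that stood apart. UTS2B, a urotensin peptide gene, was at 2.53 in MP cells of DEL and 6.89 in SP, while Karpas299 and SUPM2 differed by 0.73 and 0.83. GTSF1, of the small RNA pathway that guards germ cells, was at 3.80 in MP cells of DEL and at 7.47 or more on the other 5 arrays. In Karpas299, the antisense gene LIMD1-AS1 was at 8.82 in SP and at 2.97 to 4.89 elsewhere, and ALOX5AP, of leukotriene synthesis, at 8.32 in SP and 4.16 to 5.32 elsewhere. In SUPM2, RAD51AP1, of homologous recombination, was at 4.36 in MP cells and at 7.11 to 8.86 elsewhere, and INSIG2, which holds back sterol synthesis, was higher by 3.63. The lowest values were of similar or larger size. SNORD12C differed by -3.43 in DEL, and RNU6ATAC, SNORD50B, SNORD34 and SCARNA17, all genes of small RNAs, by -4.95, -4.76, -4.60 and -4.47 in SUPM2. GSTM3, a glutathione transferase, differed by -2.98 in Karpas299, at 7.31 in SP and 10.29 in MP, and was at 3.17 to 4.07 on the other 4 arrays, so here the line and not 1 array stood apart. CFAP418, a cilia gene, was lower in all 3 lines, with differences of -2.37, -2.51 and -0.79.

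Small nucleolar and Cajal body RNA genes, which guide the chemical marking of other RNAs, varied most between SP and MP, in both directions. Of 192 such genes, 26% were 2-fold apart in DEL, 24.5% in Karpas299 and 32.3% in SUPM2. Protein-coding genes were 2-fold apart in 2.07%, 2.85% and 6.21%. The median over the small RNA class was 0.01, with 98 higher and 94 lower, so the class had wide values without a shared direction. This class was described after the data were seen, and an array probe cannot tell a mature small RNA from the longer transcript it is cut from.

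**Figure D5:**
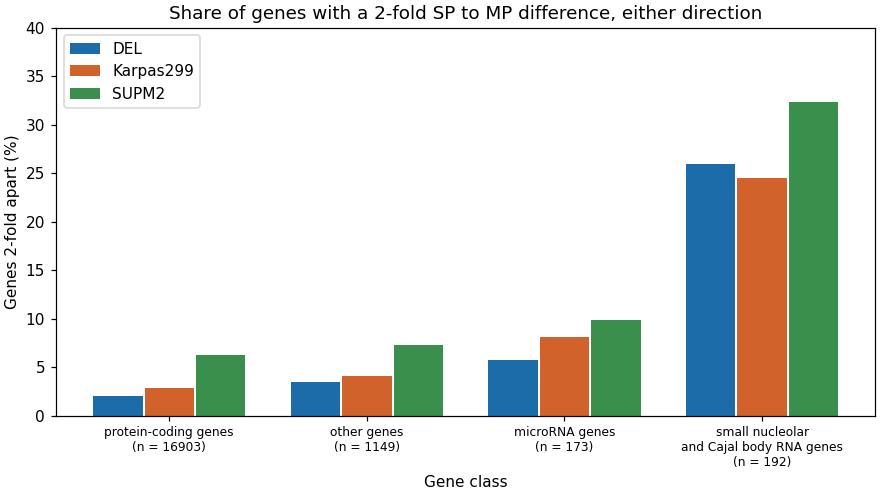
Share of genes (%, vertical axis) with SP and MP at least 2-fold apart in either direction, by gene class and line, with the number of genes in each class under the bars. The small nucleolar and Cajal body RNA genes stand at 24.5% to 32.3%, and the protein-coding genes at 2.07% to 6.21%.

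The plot of shares by gene class shows the same order of classes in each line. SNORD41, the gene of smallest p, was at 3.18, 4.69 and 2.60 in SP and 5.65, 7.66 and 5.99 in MP cells of DEL, Karpas299 and SUPM2. All SP arrays lay below all MP arrays, and the difference was -2.95 ± 0.22 (SE, n = 3; limma's unadjusted p = 2.33e-05, adjusted p = 0.430). Its SP values in DEL and SUPM2 lay under the lowest quartile of genes (4.43). Its host gene TNPO2 differed by -0.22, 0.29 and -0.76, a mean of -0.23. In SUDHL-1 SNORD41 differed by 0.56 ± 0.85 (SE), an error larger than the difference, so its direction there is uncertain. By limma's interaction its unadjusted p was 0.00837, and it did not pass the adjusted threshold. SCARNA22, higher by 1.21, 3.38 and 1.11, sits in NSD2, which differed by -0.15, 0.02 and -0.41. SNORA46 differed by -1.04 ± 0.15 and its host CNOT1 by -0.02.

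Of 3 microRNA genes inside MCM7, MIR93 and MIR106B had values on the other side of 0 from their host. MIR93 was at 7.12, 5.20 and 8.28 in SP and 5.25, 4.81 and 4.38 in MP, higher in each line, by 3.90 in SUPM2 and 0.39 in Karpas299 (mean 2.05 ± 0.64; limma's unadjusted p = 0.0214). MIR106B, named after its values were seen, was higher by 0.65, 0.30 and 3.30. MIR25, the third of the cluster and also named afterwards, differed by 0.44, -0.44 and -0.03, and MCM7 by -0.42, -0.49 and -0.52. The mature RNAs of MIR93 and MIR106B that share a seed are shown with bases 2 to 8 in capitals, and that of MIR25, which has another seed, for contrast (RefSeq, GRCh38.p14, chromosome 7, minus strand).
hsa-miR-93-5p: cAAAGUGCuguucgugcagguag
hsa-miR-106b-5p: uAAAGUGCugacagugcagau
hsa-miR-25-3p: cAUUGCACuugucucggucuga
The seed AAAGUGC of the first 2 is that of the miR-17 family. The microRNA class as a whole had 97 of 173 genes higher and a median of 0.03, as over all genes.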

How the data were processed

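Total RNA of sorted cells was amplified with the NuGEN Ovation Pico kit and hybridised to Affymetrix arrays, per the labels' protocols. The deposited values are log2 signals that the authors made with RMA, per the submitters' processing notes, with the version not given in the sources used here. RMA pulls arrays normalized together to a common distribution, which can hide a shift of most genes. SUDHL-1 medians (4.83 to 5.0) lay below the others (5.24 to 5.35), so joint normalization of all 12 is unknown, which bears on the interaction test. All 12 columns were used, with 0 left out. Of 33297 probe sets, 19460 had 1 gene symbol and 19429 of these matched RefSeq (GRCh38.p14); the probe set of highest mean over the 12 arrays stood for each of 769 genes with several, leaving 18417 genes.

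The SP against MP difference was estimated in limma 3.58.1 (R 4.3.3; lmFit and eBayes), cell line being a block, and its difference from SUDHL-1 as an interaction over 12 arrays. P-values were two-sided with Benjamini-Hochberg adjustment over all genes at 0.05. Both fits were tested on simulated data. Arrays have no read depth, and their number limits the precision.

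Genes were named by rule: 12 of smallest p in each direction with 1 sign in all 3 lines and a mean signal above the lowest 25%, 16 fixed genes (13 measured), up to 6 of smallest p from each list described, 4 extremes per line and direction, and 3 per direction for the difference from SUDHL-1, Y-linked genes and XIST left out. Members, lists and tests were chosen with earlier results of these data known. Of 48 lists 25 are described; the other 23 had medians of -0.10 to 0.17. Gene classes, host genes and motifs were added after the data were seen. Alternatives changed the filter, scaling, probe set rule, variance model, block and samples.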

Additional observations from a re-analysis of the deposited data

Results flagged for a closer look

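DNA replication genes had a median SP minus MP of -0.45 in DEL and 0.28 in SUPM2, so the same contrast lay on opposite sides of 0 with 1 SP and 1 MP array each. Respiratory chain genes had a median of -0.22 in Karpas299 and 0.23 in SUPM2, with 35 of 44 members lower in the first and 30 of 44 higher in the second. The differences between lines were not tested.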

How the results depend on the processing

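The count of genes past the adjusted threshold stayed 0 in limma's paired and interaction tests under every alternative run, with smallest adjusted p of 0.142 (robust trended variance) to 1 in the paired test. The paired count at an unadjusted p under 0.05, 887 genes, was 287 with no cell line block, 90 where a 2-fold difference was asked as well, and 1446 over all 33297 probe sets, an alternative chosen after seeing the data. Leaving out each line in turn gave medians of -0.049 to 0.013 for the G1 to S list, -0.24 to -0.076 for DNA repair, 0.12 to 0.35 for the dye pumps, 0.061 to 0.14 for the MYC network, -0.20 to -0.051 for the ALCL signature, -0.27 to -0.20 for JAK and STAT, -0.028 to 0.10 for early thymocyte genes and -0.0068 to 0.17 for quiescence genes; the cause was not tested. The linker histone median ran from 0.70 to 1.42, that of DNA replication from -0.41 to 0.0098 and that of ATF4 targets from 0.11 to 0.31. Of 193 named genes, 17 changed sign with a line left out and 0 with another scaling or filter. The SUDHL-1 replicate numbers did not pair its arrays (correlations of deviations -0.0037, -0.077 and -0.13), and with the replicate block the interaction test held 0 called genes and 646 at an unadjusted p under 0.05, against 661. With 1 array per line and population, the spread within a line is unknown.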

Other observations

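The respiratory chain list, nuclear genes of the mitochondrial electron transport chain, had 22 of 44 members higher and 22 lower on the mean. In all 3 lines 10 were lower and 0 higher, where 10.2% and 14.6% of all genes were. Without SUPM2, 4 of 44 were higher. None of the list had an unadjusted p under 0.05 in limma's test. SDHA, a subunit of complex II, was lower in each line and differed by -0.35 ± 0.18 (SE, n = 3), and NDUFA6 of complex I by -0.25 ± 0.14.

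VTRNA1-3, a vault RNA gene, was higher in SP by 0.84 in DEL, 4.95 in Karpas299 and 1.67 in SUPM2.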
